A study of Homo sapiens with 6 samples.

Results

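The genes described here build and deliver iron-sulfur clusters in the cytosol and nucleus of CAL-27 cells, a human tongue squamous carcinoma line. They were the 9 rows of the deposited expression table, of 16809 genes in all, whose symbol was CIAO1, CIAO2A, CIAO2B, CIAO3, NUBP1, NUBP2, MMS19, CIAPIN1 or NDOR1, a rule that reads symbols and not values. All 9 were found, and the Entrez identifier and symbol of each matched the human RefSeq gene table. One group of 3 libraries came from untreated cells, labelled normal control, and the other 3 from cells that had received elesclomol-Cu (ES-Cu) for 24 h. Elesclomol is an ionophore, a small molecule that ferries copper across membranes, and it was combined with copper at a ratio of 1 to 1. The study addressed how the transcriptome changes during cuproptosis, a form of cell death caused by copper. All results come from 1 line. No label says that the libraries of a group are separate cultures, so the p-values below rest on the spread among libraries that may be technical repeats.

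Iron-sulfur clusters are small cofactors of iron and sulfide that polymerases, helicases, glycosylases and other enzymes need. In animal cells, mitochondria make a sulfur-containing precursor, and the cytosolic iron-sulfur assembly machinery turns it into clusters for proteins outside mitochondria. NUBP1 and NUBP2 form the scaffold on which a cluster is built, with electrons passed on from NDOR1 through CIAPIN1. CIAO3 carries the cluster to a targeting complex of CIAO1, CIAO2B and MMS19, which hands it to most client proteins, while CIAO2A works with CIAO1 on a separate branch that serves the iron regulatory proteins.

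Values were TPM, the share of a library's transcripts that a gene takes after correction for its length, so levels of different genes can be compared. Between 14959 and 15051 genes lay above 0 in each library. The correlation r of log2 values across all 16809 genes was 0.996 to 0.997 for libraries of one group and 0.964 to 0.966 for libraries of different groups, where genes are not independent replicates. Copper and stress genes separated the groups as labelled: MT1X, a metallothionein that binds copper, went from 848.0 ± 19.8 to 10968.5 ± 256.0 TPM (SD, n = 3 each), HMOX1 from 13.2 to 1323.7 TPM and HSPA6 from 1.02 to 2406.2 TPM. The 12 squamous epithelial markers looked for were all in the table, with summed levels of 5224.8 to 5288.7 TPM in control libraries and 5156.9 to 5209.9 TPM after ES-Cu. Within that sum TP63 (86.8 to 24.5 TPM) and CDH1 (173.5 to 71.3 TPM) fell, while SFN (640.4 to 1233.4 TPM) and KRT6A (173.8 to 233.7 TPM) rose. Much of the control sum was KRT8 (1461.1 TPM) and KRT18 (1129.4 TPM), while KRT14 (4.73 TPM) and DSG3 (8.59 TPM) were low in control libraries. In the limma test described below, on deposited TPM, 8 of the 12 were called lower and 2 higher. Of all tested genes, 70.0% were called lower and 13.6% higher. Of 9 markers of leukocytes, fibroblasts and endothelium, 7 were in the table, summing to 68.6 to 74.3 TPM in control libraries and 53.2 to 57.8 TPM after ES-Cu, mostly CD68 (63.6 and 50.9 TPM). COL1A1, a collagen gene of fibroblasts, fell from 8.36 ± 0.362 to 3.62 ± 0.269 TPM, and its part in the results below was not tested. PTPRC, COL3A1, PECAM1, VWF and LYZ each had a mean of 0.42 TPM or less in both groups.

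The paralogs CIAO2A and CIAO2B were the most abundant of the 9 genes, and the first of them fell most. The bases before their transcription starts are shown beside those of their partner CIAO1. Each run is the 250 bases upstream of the start in RefSeq (GRCh38.p14), written 5′ to 3′ on the strand of the gene. Capitals mark ACTACAANT, the core of the ZNF143 motif, and CCGGAAG, an ETS core, on either strand. The CIAO1 window lies at chr2:96265975-96266224 (plus strand), that of CIAO2A at chr15:64093839-64094088 (minus strand) and that of CIAO2B at chr16:66934403-66934652 (minus strand).
CIAO2A: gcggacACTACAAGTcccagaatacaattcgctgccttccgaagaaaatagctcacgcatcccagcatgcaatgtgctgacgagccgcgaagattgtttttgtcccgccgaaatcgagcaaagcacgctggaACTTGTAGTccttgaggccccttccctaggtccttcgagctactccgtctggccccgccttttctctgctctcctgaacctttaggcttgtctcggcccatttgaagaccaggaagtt
CIAO2B: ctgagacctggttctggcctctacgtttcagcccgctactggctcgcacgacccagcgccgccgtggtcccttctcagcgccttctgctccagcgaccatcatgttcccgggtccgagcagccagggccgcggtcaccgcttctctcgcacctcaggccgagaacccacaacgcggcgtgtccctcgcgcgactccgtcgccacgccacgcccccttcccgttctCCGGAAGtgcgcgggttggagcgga
CIAO1: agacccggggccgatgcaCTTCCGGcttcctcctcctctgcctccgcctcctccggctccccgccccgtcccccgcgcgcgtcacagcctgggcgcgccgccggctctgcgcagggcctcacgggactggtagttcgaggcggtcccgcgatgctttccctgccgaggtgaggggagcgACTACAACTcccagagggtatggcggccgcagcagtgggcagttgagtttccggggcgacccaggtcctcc
The CIAO2A run holds the ZNF143 letters from positions -244 and -118, counted from the start, and is 53.6% G and C. The CIAO2B run holds no such letters, has the ETS letters from position -25 and is 68.8% G and C. CIAO1 has both, the ZNF143 letters from position -71 and the ETS letters from position -232. The motifs were chosen after the sequences had been seen.

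Of the 8 genes with a window in the table (NUBP2 had none), 2 held the ZNF143 letters, beside 1.32% of 35116 windows of the same length. The ETS letters were in 3 genes, with NDOR1, beside 8.52% of windows. NUBP1 and MMS19 had 2 windows each, and a gene was counted if any of its windows matched. Counts here are thus of genes and percentages of single windows, so they are not directly comparable. The NRF1 letters GCATGCGC were in CIAO3 and MMS19 and in 2.63% of all windows. Letters of the metal response element (TGCGCNC or TGCACNC), bound by the factor that drives metallothioneins, were in CIAO3 and NUBP1 and in 24.8% of all windows. In the CIAO3 window those from position -90 overlap the NRF1 letters from position -88, while those from positions -226, -217 and -13 do not. No window of the 8 genes held AAGATGGC (YY1), GAANNTTC (heat shock element) or TGACNNNGC (antioxidant response element), which 1.36%, 5.78% and 10.9% of all windows held. All motifs were searched on both strands, and a match is a description of letters only.

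Transcripts of all 9 assembly genes took a smaller share of the transcriptome after ES-Cu, and in each gene the 3 ES-Cu libraries lay below the 3 control libraries. The share of all tested genes with such a gap was not counted, but 70.0% of them were called lower on this scale. CIAO2A fell most, to 0.479 of its control level, followed by NUBP2 at 0.528 and MMS19 at 0.543. NUBP1 and NDOR1 were least lowered, at 0.860 and 0.850. Only CIAO2A, NUBP2 and MMS19 kept an adjusted p under 0.05 and the same sign under 3 ways of scaling the libraries, and "fell" and "rose" are used only for such genes. A smaller share can come from fewer cells that hold the transcripts, from fewer of them per cell or from a rise of other genes. These cannot be told apart in bulk RNA.

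TPM has a fixed total, so a rise of some genes lowers the share of others by arithmetic, and the fit was therefore made on 3 scalings. How much of the general lowering comes from this was not tested. On the deposited TPM, the limma test on log2(TPM + 1) called 9 of 9 members lower and 0 higher, where 70.0% of all 11927 tested genes (mean of at least 1 TPM) were called lower and 13.6% higher. The median log2 fold change was -0.65 for the members and -0.50 for all tested genes. After median-of-ratios scaling, which centres the typical gene at 0.00, 3 members were called lower and 2 higher, against 35.8% and 38.0% of all tested genes. After quantile normalization, which gives every library the same distribution and left the median of all tested genes at -0.07, 6 were called lower and 1 higher, against 39.9% and 31.4%. With one sign in all 3 scalings, 3 of 9 members were lower and 0 higher, against 31.2% and 13.5% of tested genes. The share of members called lower was thus close to that of all genes after median-of-ratios scaling and with one sign in all scalings, and above it on the deposited scale and after quantile normalization.

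**Figure D1:**
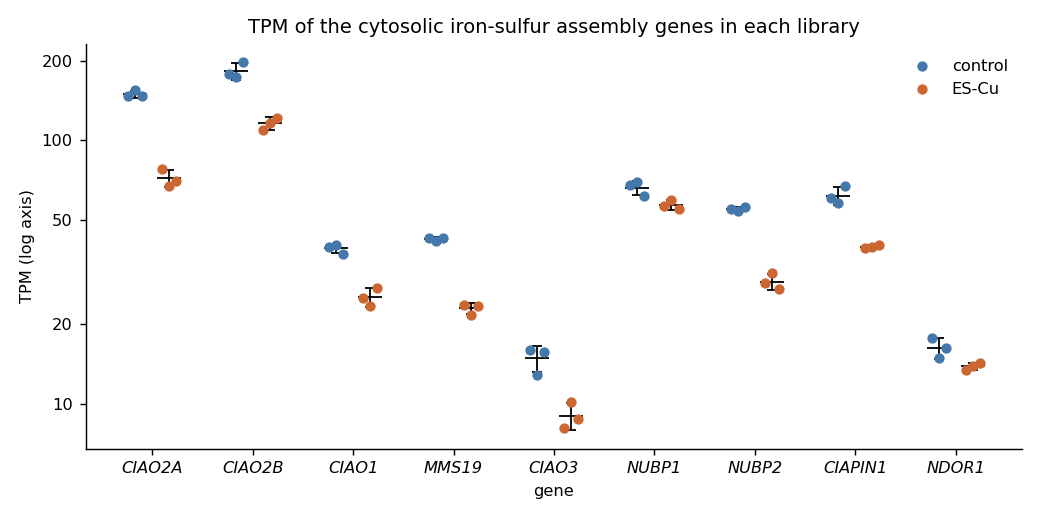
TPM of each of the 9 assembly genes (log axis) in the 3 control libraries (blue) and the 3 ES-Cu libraries (orange), with the mean and SD of each group as bars. In every gene the orange points lie below the blue ones, with the widest gap in CIAO2A (means of 149.7 and 71.7 TPM) and narrow gaps in NUBP1 and NDOR1. How common such gaps are among all tested genes was not counted.

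Together the 9 genes held 623.4, 618.8 and 641.5 TPM in the control libraries and 381.3, 383.5 and 388.0 TPM in the ES-Cu libraries. The ES-Cu sum was thus 0.612 of the control sum on the deposited scale. It was 0.901 of it after median-of-ratios scaling and 0.754 after quantile normalization. CIAO2A and CIAO2B held more than the other 7 genes together in control libraries, and without them the ratio was 0.666 on the deposited scale.

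In the scaffold, NUBP2 fell and NUBP1 did not keep one sign. NUBP2 (Entrez 10101), a P-loop ATPase, measured 54.75, 54.06 and 55.99 TPM in control libraries and 28.66, 31.26 and 27.15 TPM after ES-Cu. The groups were far apart compared with the spread inside each, and NUBP2 fell by 0.90 on the log2 scale (SE 0.0599, 95% interval -1.03 to -0.77, limma adjusted p = 1.21e-07), with -0.36 after median-of-ratios scaling and -0.54 after quantile normalization. NUBP2 has the highest G and C content of the 9 transcripts, 66.2%. When the trend of each library with G and C content was removed its value was -0.14 (limma adjusted p = 0.0604), and it was not called. Here and below, removing this trend also takes out each library's general level. Such values therefore compare with those after median-of-ratios scaling, here -0.36, and not with the deposited ones.

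NUBP1 (Entrez 4682), the scaffold ATPase that also carries a cluster of its own, measured 67.42, 69.22 and 61.71 TPM in control libraries and 56.29, 59.43 and 54.81 TPM after ES-Cu. The ranges did not overlap, but the gap between the lowest control and the highest ES-Cu library was small. Its log2 fold change was -0.21 (SE 0.0565, limma adjusted p = 0.00429) on deposited TPM, 0.34 (limma adjusted p = 0.000617) after median-of-ratios scaling and 0.11 (limma adjusted p = 0.132) after quantile normalization, so its direction depends on the scaling. On the deposited scale 69.0% of tested genes had a lower log2 fold change than NUBP1, against 23.5% for NUBP2. NUBP1 shares 706 of its 1955 exon bases (36.1%) with TVP23A on the opposite strand, whose mean was 0.253 ± 0.206 TPM in control libraries and 1.54 ± 0.351 TPM after ES-Cu (n = 3 each). Whether reads were counted by strand is not given in the sources used here, and the part of those reads in the NUBP1 value was not tested.

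The electron donors of the scaffold lay at different levels. CIAPIN1 (Entrez 57019), also called anamorsin, takes electrons from NDOR1 and measured 60.21, 57.60 and 67.19 TPM in control libraries and 38.85, 39.48 and 39.97 TPM after ES-Cu. The ES-Cu libraries lay close together and all below control. Its log2 fold change was -0.63 (SE 0.0606, limma adjusted p = 2.15e-06) on deposited TPM, -0.08 (limma adjusted p = 0.243) after median-of-ratios scaling and -0.31 (limma adjusted p = 0.00115) after quantile normalization. With the trend in G and C content removed it was -0.13 (limma adjusted p = 0.0643). CIAPIN1 shares 104 of its 3509 exon bases (2.96%) with COQ9 on the opposite strand, a coenzyme Q synthesis gene that fell from 64.5 ± 4.25 to 20.5 ± 0.626 TPM (n = 3 each).

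NDOR1 (Entrez 27158), a flavoprotein that draws electrons from NADPH, measured 17.76, 14.85 and 16.34 TPM in control libraries and 13.40, 13.95 and 14.26 TPM after ES-Cu. The highest ES-Cu library was just below the lowest control library. The log2 fold change of NDOR1 was -0.22 (SE 0.0783, limma adjusted p = 0.0231) on deposited TPM, and this call was lost without control 1 (-0.16, limma adjusted p = 0.109), control 3 (-0.21, limma adjusted p = 0.056) or ES-Cu 1 (-0.19, limma adjusted p = 0.0666). After median-of-ratios scaling it was 0.31 (limma adjusted p = 0.00539) and after quantile normalization 0.27 (limma adjusted p = 0.0130). NDOR1 was thus called in opposite directions by the deposited scale and by the other two scalings.

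CIAO3 (Entrez 64428) links the scaffold to the targeting complex and was the least abundant of the 9 genes in ES-Cu libraries. It measured 16.03, 12.91 and 15.74 TPM in control libraries and 8.07, 10.17 and 8.73 TPM after ES-Cu, and it had the largest standard error of the 9. The log2 fold change was -0.67 (SE 0.105, 95% interval -0.90 to -0.44, limma adjusted p = 0.000104) on deposited TPM, but -0.16 (limma adjusted p = 0.230) after median-of-ratios scaling and -0.14 (limma adjusted p = 0.278) after quantile normalization. CIAO3 shares 1744 of its 8101 exon bases (21.5%) with HAGHL on the opposite strand, which fell from 8.68 ± 1.06 to 3.55 ± 0.144 TPM (n = 3 each). The part of HAGHL reads in the CIAO3 value was not tested.

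In the targeting complex, MMS19 fell and its partners CIAO1 and CIAO2B were lower on the deposited scale without keeping the call after median-of-ratios scaling. MMS19 (Entrez 64210), the large adaptor that binds many of the clients, measured 42.53, 41.64 and 42.72 TPM in control libraries and 23.61, 21.78 and 23.57 TPM after ES-Cu. Both groups were tight, and MMS19 fell by 0.85 on the log2 scale (SE 0.0562, 95% interval -0.98 to -0.73, limma adjusted p = 1.15e-07), with -0.31 after median-of-ratios scaling and -0.46 after quantile normalization. With the trend in G and C content removed it was -0.26 (limma adjusted p = 0.000488).

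CIAO1 (Entrez 9391), a propeller-shaped WD40 protein that holds the complex together, measured 39.52, 40.16 and 37.10 TPM in control libraries and 25.17, 23.42 and 27.61 TPM after ES-Cu. Control and ES-Cu libraries did not overlap. Its log2 fold change was -0.60 (SE 0.0682, limma adjusted p = 8.28e-06) on deposited TPM, -0.06 (limma adjusted p = 0.425) after median-of-ratios scaling and -0.21 (limma adjusted p = 0.0128) after quantile normalization. CIAO1 was near the middle of all genes, since 43.0% of tested genes had a lower log2 fold change on the deposited scale.

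CIAO2B (Entrez 51647), the subunit that joins CIAO1 to MMS19, was the most abundant of the 9 genes in both groups. It measured 177.85, 173.64 and 197.71 TPM in control libraries and 109.46, 116.81 and 121.76 TPM after ES-Cu. The log2 fold change was -0.65 (SE 0.0575, limma adjusted p = 1.04e-06) on deposited TPM, -0.10 (limma adjusted p = 0.172) after median-of-ratios scaling and -0.45 (limma adjusted p = 7.87e-05) after quantile normalization. With the trend in G and C content removed it was -0.05 (limma adjusted p = 0.455). For this gene 39.5% of tested genes had a lower value on the deposited scale.

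CIAO2A (Entrez 84191), the paralog that serves the iron regulatory branch, fell most of the 9 genes. It measured 147.34, 154.72 and 146.95 TPM in control libraries and 77.78, 67.21 and 70.12 TPM after ES-Cu, and the highest ES-Cu library lay far below the lowest control library. The fall was 1.05 on the log2 scale (SE 0.0561, limma adjusted p = 2.62e-08), that is -1.05 with a 95% interval of -1.18 to -0.93. It was -0.50 (limma adjusted p = 6.96e-06) after median-of-ratios scaling and -0.79 (limma adjusted p = 3.38e-07) after quantile normalization, and -0.68 with the trend in G and C content removed. Even so, 15.9% of all tested genes had a lower log2 fold change on the deposited scale, so many genes outside the assembly machinery changed more. CIAO2A, with 41.0% G and C, was the only one of the 9 transcripts below the median of tested genes, 48.8%.

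**Figure D2:**
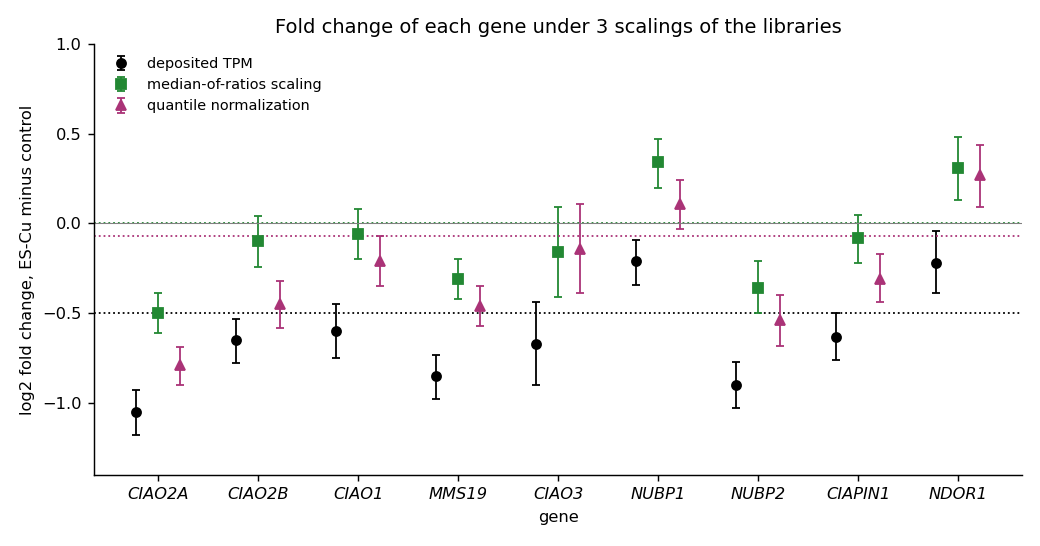
Log2 fold change (ES-Cu minus control, log2 of TPM + 1) of the 9 genes from limma with 95% intervals, on deposited TPM (black circles), after median-of-ratios scaling (green squares) and after quantile normalization (purple triangles). Dotted lines mark the median of all 11927 tested genes in the same colours, at -0.50, 0.00 and -0.07. CIAO2A, MMS19 and NUBP2 lie below 0 in all 3 scalings, and so do CIAO1, CIAO2B, CIAO3 and CIAPIN1, though these 4 with an interval that crosses 0 in at least 1 scaling. NUBP1 and NDOR1 lie below 0 only on the deposited scale.

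The ratio of a pair of genes within a library does not depend on how that library is scaled by a factor, and 4 pairs of partners were compared in this way. NUBP1 was 1.23, 1.28 and 1.10 times as abundant as NUBP2 in control libraries and 1.96, 1.90 and 2.02 times in ES-Cu libraries. The means were 1.20 ± 0.0921 and 1.96 ± 0.0589 (SD, n = 3 each), a difference of 0.71 on the log2 scale. This holds without correction for G and C content, and with the trend in it removed the log2 fold changes were 0.32 for NUBP1 and -0.14 for NUBP2. NUBP1 transcripts were slightly above those of NUBP2 in control libraries and further above them after ES-Cu. CIAO2A stood at 0.828, 0.891 and 0.743 of its paralog CIAO2B in control and at 0.711, 0.575 and 0.576 in ES-Cu libraries, a log2 difference of -0.41. ES-Cu 1, at 0.711, was the library nearest to control, where the lowest ratio was 0.743.

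CIAPIN1 was 3.39, 3.88 and 4.11 times as abundant as NDOR1 in control and 2.90, 2.83 and 2.80 times in ES-Cu libraries, a log2 difference of -0.41. The ratio of CIAO1 to MMS19 was 0.929, 0.964 and 0.868 in control and 1.07, 1.08 and 1.17 in ES-Cu libraries, a log2 difference of 0.26. The groups did not overlap in any of the 4 pairs. How often other pairs of tested genes separate the groups in this way was not counted. Each pair had p = 0.1 in the two-sided exact permutation test, also after Benjamini-Hochberg adjustment over the 4 pairs, which is the smallest p that 3 against 3 libraries allow, so none could pass 0.05.

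**Figure D3:**
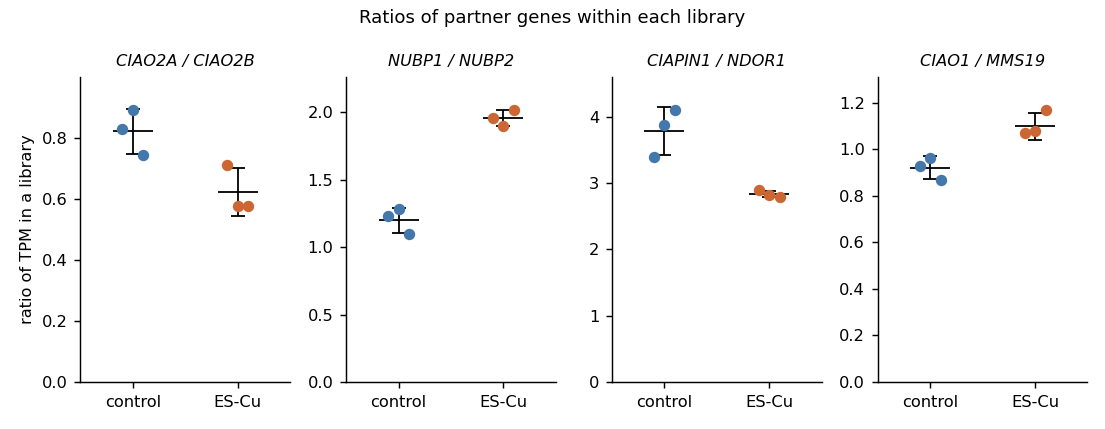
Ratio of the TPM of 2 partner genes in each library (linear axes from 0, a separate axis for each pair), for 3 control (blue) and 3 ES-Cu (orange) libraries, with mean and SD. NUBP1 over NUBP2 goes from 1.20 to 1.96 and CIAO1 over MMS19 from 0.921 to 1.10, while CIAO2A over CIAO2B goes from 0.821 to 0.621 and CIAPIN1 over NDOR1 from 3.79 to 2.84.

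In control libraries the order of mean levels was CIAO2B (183.1 TPM), CIAO2A (149.7), NUBP1 (66.1), CIAPIN1 (61.7), NUBP2 (54.9), MMS19 (42.3), CIAO1 (38.9), NDOR1 (16.3) and CIAO3 (14.9). The libraries of neighbours overlapped for NUBP1 with CIAPIN1 and for NDOR1 with CIAO3, so their order is not settled, and no other neighbours overlapped. After ES-Cu the means were 116.0, 71.7, 56.8, 39.4 and 29.0 TPM for the same first 5 genes, then 25.4 for CIAO1, 23.0 for MMS19, 13.9 for NDOR1 and 8.99 for CIAO3. Here the ranges of NUBP2 and CIAO1, and of CIAO1 and MMS19, overlapped, while NUBP1 now lay apart from CIAPIN1 and NDOR1 apart from CIAO3. In control, CIAO2B was above 93.3% and CIAO2A above 91.5% of tested genes, whereas CIAO3 was above 41.8% and NDOR1 above 44.4%.

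The 26 client proteins listed, which receive clusters in the cytosol or nucleus, had median changes close to those of all tested genes. Of the 25 tested, 10 fell and 0 rose with one sign in all scalings, where 31.2% of all tested genes were lower and 13.5% higher. Their median log2 fold change was -0.53 on deposited TPM and -0.02 after median-of-ratios scaling, where all tested genes had -0.50 and 0.00. POLD1, the catalytic subunit of the replicative DNA polymerase delta, fell from 48.5 ± 0.649 to 20.7 ± 0.470 TPM (n = 3 each), a log2 change of -1.19 (limma adjusted p = 7.13e-09). DPH1, an enzyme of diphthamide synthesis, fell from 16.9 ± 1.74 to 5.99 ± 1.67 TPM. The DNA repair glycosylases MUTYH (14.7 to 5.86 TPM) and NTHL1 (35.6 to 15.6 TPM) and the helicases BRIP1 (12.1 to 5.37 TPM) and ERCC2 (23.0 to 12.2 TPM) also fell.

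The clients ABCE1 and ACO1 did not keep one sign. ABCE1, which recycles ribosomes, stood at 98.4 ± 3.46 and 77.3 ± 3.54 TPM, with log2 changes of -0.35, 0.21 and -0.05 on the deposited, median-of-ratios and quantile scales. ACO1, the cytosolic aconitase that binds iron-responsive RNA elements when it lacks its cluster and the client served by CIAO2A, stood at 63.3 ± 3.31 and 47.3 ± 1.74 TPM, with -0.41, 0.14 and -0.10. RSAD2 lay under the level tested.

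For comparison with the polymerase and helicase clients, 27 replication genes whose products carry no cluster were read from the same fit. Of these, 15 fell and 1 rose, beside 31.2% lower and 13.5% higher of all tested genes, with medians of -0.69 on deposited TPM and -0.14 after median-of-ratios scaling. MCM6 (107.1 to 44.3 TPM) and MCM3 (197.2 to 93.3 TPM) of the replicative helicase, the polymerase subunits POLE2 (23.3 to 9.53 TPM) and POLA2 (77.4 to 35.4 TPM) and the primase PRIM1 (67.8 to 29.7 TPM) fell. GINS3, the 1 that rose (19.3 to 26.1 TPM), was named after its value was seen. Replication genes with and without a cluster thus both held genes that fell, and the difference between the lists was not tested.

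Of 7 factors that hand iron or clusters to the assembly machinery, or adapt it to single clients, 1 rose and 1 fell with one sign, beside 13.5% and 31.2% of all tested genes. GLRX3, a glutaredoxin that passes clusters on with BOLA2, stood at 270.1 ± 4.29 and 255.3 ± 13.4 TPM with overlapping groups, and its log2 change was -0.08 (limma adjusted p = 0.102), 0.47 after median-of-ratios scaling and 0.07 after quantile normalization. LTO1 and YAE1 form the adaptor that brings ABCE1 to the targeting complex, and they were called in opposite directions. YAE1 fell from 33.8 ± 2.43 to 19.4 ± 0.362 TPM (log2 change -0.77, limma adjusted p = 7.73e-07). LTO1 was 17.45, 21.47 and 19.48 TPM in control libraries and 25.97, 25.50 and 20.77 TPM after ES-Cu, so the groups overlapped, and its rise of 0.29 (limma adjusted p = 0.0155) was the 1 higher call of the list of 7, a count that dropped to 0 without control 1, ES-Cu 1 or ES-Cu 2. YAE1 was the 1 lower call. BOLA2 and BOLA2B are near-identical copies, so how reads were shared between them is uncertain.

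Upstream, mitochondrial genes of cluster synthesis and export were lower by a median of -0.60 on deposited TPM and -0.07 after median-of-ratios scaling, and 4 of 12 fell while 1 rose, a lower share near the 31.2% of all tested genes. The 4 were FDXR (49.0 to 21.0 TPM) and FDX2 (30.6 to 16.4 TPM), which supply electrons, the cysteine desulfurase NFS1 (24.9 to 12.3 TPM) and the cluster carrier GLRX5 (63.0 to 33.5 TPM). HSPA9, the mitochondrial chaperone, rose from 259.2 ± 10.9 to 412.8 ± 2.95 TPM (log2 change 0.67, limma adjusted p = 5.45e-08).

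The 7 late mitochondrial factors, which insert clusters into mitochondrial enzymes, had medians of -0.88 on deposited TPM and -0.37 after median-of-ratios scaling, and 5 fell while 1 rose, beside 31.2% and 13.5% of all tested genes. BOLA1 fell from 17.4 ± 0.0907 to 4.82 ± 0.995 TPM, a log2 change of -1.68 (limma adjusted p = 1.88e-07). NFU1 (56.2 to 28.2 TPM), ISCA2 (15.0 to 7.74 TPM), NUBPL (9.38 to 4.65 TPM), a mitochondrial relative of NUBP1, and BOLA3 (156.0 to 92.9 TPM) fell. ISCA1, the partner of ISCA2, rose from 47.9 ± 3.54 to 62.6 ± 1.85 TPM and was named after its value was seen. The difference between this list and the cytosolic genes was not tested.

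Among 9 genes of iron sensing and uptake, 8 were tested, 2 rose and 2 fell, beside 13.5% higher and 31.2% lower of all tested genes. The ferritin light chain FTL rose from 2170.0 ± 109.4 to 4423.4 ± 175.2 TPM (log2 change 1.03, limma adjusted p = 7.04e-09), and the transferrin receptor TFRC rose from 271.8 ± 6.27 to 322.4 ± 7.12 TPM (0.25, limma adjusted p = 8.82e-05). SLC11A2, an iron importer, fell from 25.1 to 13.8 TPM, and FBXL5, which marks iron regulatory protein IREB2 for degradation, from 18.6 to 11.0 TPM, though the lower count of this list was 1 without control 1, control 3 or ES-Cu 2. The ferritin heavy chain FTH1 had log2 changes of 0.13, 0.69 and -0.63 on the 3 scales, and IREB2 had -0.46, 0.07 and -0.05. The medians of the list were -0.34 on deposited TPM and 0.21 after median-of-ratios scaling.

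**Figure D4:**
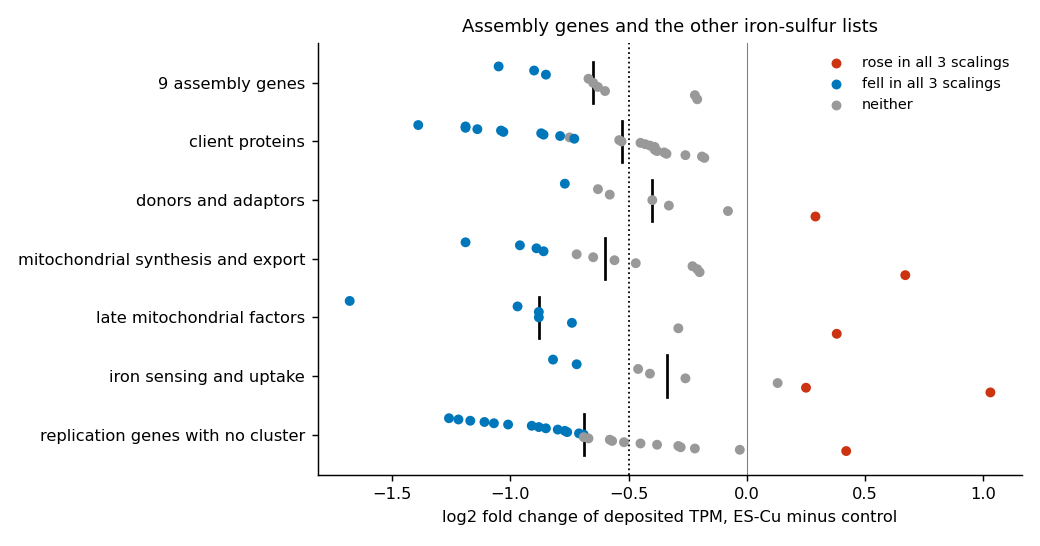
Log2 fold change (ES-Cu minus control, deposited TPM) of every tested gene of the 9 assembly genes and of 6 related lists, 1 point per gene, spread vertically only to keep points apart. Red and blue points rose or fell with one sign in all 3 scalings, grey points did not, short bars are list medians and the dotted line is the median of all tested genes at -0.50. The assembly genes have 3 blue and 0 red points and a median of -0.65, beside -0.53 for client proteins and -0.88 for late mitochondrial factors.

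The gene whose 6 libraries most resembled each member was found among 11926 other tested genes, as the smallest Euclidean distance between log2(TPM + 1) values set relative to the control mean. NUBP2 had the closest match, BST2 at a distance of 0.0406, followed by CIAPIN1 with OST4 (0.0490), MMS19 with KAZN (0.0524), CIAO1 with LRP6 (0.0534) and CIAO2A with EMP2 (0.0536). NUBP1 was matched by the centriole kinase gene PLK4 (0.0582), NDOR1 by NDUFAB1 (0.0759), CIAO3 by KLHL25 (0.0783) and CIAO2B by FKBP8 (0.0826). None of the 9 matches was another member, and 1, NDUFAB1, the mitochondrial acyl carrier protein, is on the list of mitochondrial synthesis genes above. A match mostly means a similar fold change, as for NDOR1 (-0.22) and NDUFAB1 (-0.20) on deposited TPM. With so few members among 11926 genes, a match to another member would be rare in any case.

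Across the 9 members the fold change had no clear relation to G and C content (Spearman's rho 0.07), while over 11624 tested genes rho was -0.22. These are relations across genes of the same 6 libraries and are given as descriptions. The members' transcripts ran from 696 bases in CIAO2B to 3797 bases in MMS19.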

How the data were processed

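Total RNA of 3 untreated and 3 ES-Cu libraries was sequenced as single-end 50-base reads on a BGISEQ-500, per the labels' protocols. The deposited table holds TPM computed by the authors. The submitters' processing notes name HISAT and Bowtie2, and the build GRCm38.p6, which is mouse although 16753 of 16809 identifiers (99.7%) are human, so no gene coordinates are given beyond the RefSeq promoter windows, which carry their own build. TPM keeps no read totals, so depth and counting error are unknown.

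Genes averaging 1 TPM or more over the 6 libraries entered limma 3.58.1 (R 4.3.3) as log2(TPM + 1) (empirical Bayes with trend, two-sided, Benjamini-Hochberg over 11927 genes, threshold 0.05), and fold changes on this scale understate those of low genes. The fit was repeated after median-of-ratios scaling (factors 0.806 to 1.22) and quantile normalization. Pair ratios used exact two-sided permutation tests. The limma fit was tested on simulated data with independent noise and no general shift between groups. The median-of-ratios factors were tested on libraries multiplied by a known factor. Quantile normalization, removal of the trend in G and C content, permutation tests and motif searches were not part of this test. G and C content, transcript length and exon overlaps came from GENCODE v29 (97.5% of tested genes matched), and promoter windows from RefSeq.

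The members, lists and tests were chosen with earlier results of these data known. Named were all 9 members, 13 pathway genes and 3 treatment genes whatever their values, each member's nearest gene, and of each list the 5 largest changes with one sign in all scalings and at least 5 TPM in a group. A gene that this rule takes is not reported here. Alternatives were other pseudocounts (0.1, 0.5), other filters (none, 5 TPM), limma without the trend, a replicate block, dropping the 20 highest genes and omitting each library in turn. A fit without the trend in G and C content was added after the data were seen. It subtracted from each library a smooth curve over G and C content, which also takes out the library's general level.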

Additional observations from a re-analysis of the deposited data

How the results depend on the processing

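Scaling and the removal of the trend in G and C content, which also centres each library, changed most. Genes called higher numbered 4532 after median-of-ratios scaling, 3751 after quantile normalization and 4265 with the trend in G and C content removed, and genes called lower numbered 4266, 4756 and 4066. Members called higher numbered 2, 1 and 2 in that order, and members called lower 3 after median-of-ratios scaling and 2 with the trend removed, when 2 members, NUBP1 and NDOR1, were higher with one sign. With the trend removed, 2 client proteins, 2 mitochondrial synthesis genes and 3 replication genes were higher with one sign. The share of all tested genes that were higher with one sign after this removal was not counted, so these counts and that of the members have no background. In this setting deposited and median-of-ratios values become nearly the same, so one sign in all scalings asks less of a gene. Values with a changed sign were 0.01 for CIAO1, 0.07 for CIAO3, 0.32 for NUBP1 and 0.53 for NDOR1 with the trend removed, 0.34 for NUBP1 and 0.31 for NDOR1 after median-of-ratios scaling, and 0.11 for NUBP1 and 0.27 for NDOR1 after quantile normalization. The cause was not tested. With the 20 highest genes removed, the calls of NUBP1 (-0.06, limma adjusted p = 0.38) and NDOR1 (-0.07, limma adjusted p = 0.441) were lost. Leaving out 1 library gave 0 to 1 donors and adaptors higher and 1 to 2 iron genes lower. Of 144 fold changes of members under alternatives, 123 kept direction and side of the threshold, 13 lost the call and 8 changed sign. All 32 pair ratios and all 10 sums kept their direction. Leaving out 1 library could not change it, because the groups did not overlap, and the replicate block reuses the same mean ratio. Pair ratios were not recomputed after quantile normalization or with the trend in G and C content removed. Same-numbered libraries of the groups deviated together little (r = 0.0206, -0.0337 and 0.0107), which does not settle whether the numbers pair them. The replicate block left 9 members called lower, with CIAO2A at -1.05 and NDOR1 at -0.22, and a sign-flip permutation over replicate numbers gave p = 0.25 for each pair ratio, the smallest it allows. Depth limits could not be judged from TPM.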
